A study of Mus musculus with 2 samples.

Results

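The miRNA genes described here are the 4 genes of the Mir29 family (Mir29a, Mir29b-1, Mir29b-2 and Mir29c) and Mir21a, 5 of the 1973 miRNA genes with a row in the deposited tables. Of the 1973, 623 had at least 1 sense count in replicate 1 and 630 in replicate 2. The 5 genes were taken by gene symbol through their Ensembl identifiers, and only counts on the sense strand were used. The tissue was whole limb of B6NCrl mouse embryos at embryonic day 15.5, untreated, sequenced as small RNA with a size range below 30 nt. There was 1 group with 2 biological replicates, limbs of 78 embryos in replicate 1 and of 62 in replicate 2, with male and female embryos pooled. The series has no second tissue, age or treatment, so levels are described and the replicates are compared with each other.

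MicroRNAs are cut from hairpin precursors and guide Argonaute proteins to messenger RNAs that pair with their seed, the bases near the 5′ end of the mature strand. The miR-29 family is known for repressing collagens, elastin, fibrillin and other matrix genes, and is lowered by TGF-beta signalling in fibroblasts. miR-21 is known for rising in activated fibroblasts and in fibrosis, where it represses inhibitors of growth factor signalling and of matrix breakdown. The mesenchyme of the limb deposits large amounts of collagen matrix while cartilage, tendon, dermis and bone form.

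The mature sequences are printed here because they decide which reads can be assigned to which gene. They are from RefSeq (GRCm38.p6), which held all 5 hairpins, with the seed (bases 2 to 8) in capitals, each 5′ to 3′.
miR-29a-3p (Mir29a): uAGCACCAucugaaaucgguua
miR-29b-3p (Mir29b-1 and Mir29b-2): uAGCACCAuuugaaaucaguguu
miR-29c-3p (Mir29c): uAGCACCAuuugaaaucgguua
miR-21a-5p (Mir21a): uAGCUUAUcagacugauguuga
The 3p arms of the family share the seed AGCACCA, and no other mature arm in the table had it. Counted from the 5′ end, miR-29a-3p and miR-29c-3p differ by the single substitution C10U. From miR-29c-3p to miR-29b-3p there are 3 substitutions (G18A, U21G and A22U) over 22 bases, and the first 17 bases are the same. The seed of miR-21a-5p is AGCUUAU, which was also found in the mature arm of Mir21c.

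Mir29b-1 and Mir29b-2 yield the same 3p arm of 23 bases from different chromosomes. Their hairpins are printed with their longest common stretch, 25 bases, in capitals.
Mir29b-1: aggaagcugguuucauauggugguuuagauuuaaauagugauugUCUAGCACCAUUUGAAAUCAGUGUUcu
Mir29b-2: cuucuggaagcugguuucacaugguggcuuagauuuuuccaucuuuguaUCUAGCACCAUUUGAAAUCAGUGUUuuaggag
The capitals cover the whole 3p arm, so a read of that arm matches both hairpins. The 5p arms are each found in 1 hairpin. They are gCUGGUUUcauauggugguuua for Mir29b-1 and cUGGUUUCacaugguggcuuagauu for Mir29b-2, seeds in capitals. In the tables, reads with several alignments are totalled on a line apart from the genes. None of the 6 stretches of 18 bases in miR-29b-3p was confined to 1 hairpin among the 1005 searched, against 5 of 5 in miR-29a-3p, in miR-29c-3p and in miR-21a-5p. Reads of miR-29b-3p would thus align to at least 2 genes, and the tables do not say how the counter treated each of them.

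**Figure D1:**
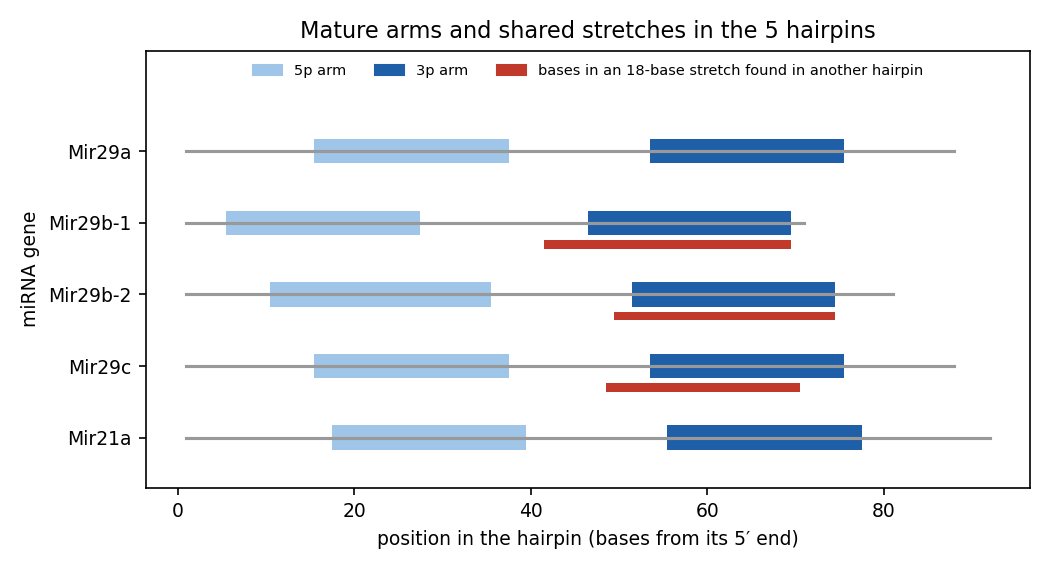
Each line is 1 hairpin, with position in bases from its 5′ end on the x axis. Light boxes are 5p arms, dark boxes 3p arms, and red bars mark bases in a stretch of 18 that another RefSeq hairpin also holds. Red bars span the 3p arm of Mir29b-1 and Mir29b-2 in full and that of Mir29c in part, while Mir29a and Mir21a have none.

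The 5 genes lie at 3 loci. Mir29a (ENSMUSG00000065610.1) and Mir29b-1 (ENSMUSG00000065604.1) are on the minus strand of chromosome 6 in mm10, at chr6:31062660-31062747 and chr6:31063023-31063093, with 275 bases between them. GENCODE M21 gives no other gene over Mir29a on that strand, and the long non-coding RNA gene Gm27019 overlaps Mir29b-1 by 2 bases. Mir29b-2 (ENSMUSG00000065412.2) and Mir29c (ENSMUSG00000065548.1) are on the plus strand of chromosome 1, at chr1:195037040-195037120 and chr1:195037547-195037634, with 426 bases between them. Each lies within an exon of a retained-intron transcript of the non-coding gene A330023F24Rik, and opposite the 3′ UTR of Cd46, a complement regulator. Mir21a (ENSMUSG00000065455.1) is on the minus strand at chr11:86584067-86584158, within the 3′ UTR of the last exon of Vmp1, a gene of autophagy.

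Sense counts summed to 4263630 in replicate 1 and 5151214 in replicate 2. Levels are given as CPM, the count scaled to a library total of 1000000. A read here is a whole small RNA, so counts were not divided by length, and unequal capture of different sequences was not tested. Markers of the limb's tissues were present: the chondrocyte miRNA Mir140 held 4.32% ± 0.110 of the sense counts, the 3 Hox cluster miRNAs 5.23% ± 0.693, the 2 epidermal miRNAs 8.87% ± 0.749 and the endothelial Mir126a 2.23% ± 0.0903 (SD, n = 2). Leukocyte markers held 0.0629% ± 0.00395 over 2 of 3 listed genes, and of 6 neuronal markers 2 had a row and neither was detected. Both mature arms of these 2, Mir9-2 and Mir9-3, are also found whole in another hairpin. Reads with several alignments are totalled apart from the genes, so the level of miR-9 cannot be read from these counts. Mir9-3 had 9 and 7 counts, under the detection minimum of 10. In a whole limb, fewer cells of a type and less of a miRNA per cell cannot be told apart.

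By counts assigned to genes, Mir21a was by far the most abundant of the 5 and ranked high among the miRNA genes of the limb. Reads with several alignments enter neither its rank nor its share, so genes with copies may be ranked too low beside it. There were 0.632 such reads per sense count in replicate 1 and 0.626 in replicate 2. It had 27743 sense counts in replicate 1 and 34091 in replicate 2, which is 6507 and 6618 CPM. The mean was 6562 ± 78.6 CPM (SD, n = 2), rank 31 of 1973 genes. That is 0.651% of the sense counts of replicate 1, with a 95% Wilson interval from 0.643 to 0.658%. For replicate 2 it is 0.662%, with an interval from 0.655 to 0.669%. The libraries thus differed by 1.2% of the mean as a coefficient of variation, the smallest of the 3 members with at least 10 counts in each library.

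Mir29a, from the chromosome 6 pair, was the leading counted gene of the family at a far lower level. It had 605 and 571 sense counts, or 142 and 111 CPM, with a mean of 126 ± 22.0 CPM (SD, n = 2) and rank 183. The 95% Wilson intervals of these levels, 131 to 154 CPM and 102 to 120.3 CPM, do not overlap. Mir29c, from the chromosome 1 pair, had 174 and 195 sense counts, or 40.8 and 37.9 CPM, with a mean of 39.3 ± 2.09 CPM (SD, n = 2) and rank 231. Its intervals, 35.2 to 47.3 CPM in replicate 1 and 32.9 to 43.6 CPM in replicate 2, overlap.

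Mir29b-1 and Mir29b-2 had almost no counts of their own. Mir29b-1 had 4 and 5 sense counts, or 0.938 and 0.971 CPM (Wilson 95% intervals 0.365 to 2.41 and 0.415 to 2.27 CPM). Mir29b-2 had 2 and 3, or 0.469 and 0.582 CPM (0.129 to 1.71 and 0.198 to 1.71 CPM). A count of 0 would allow up to 3 counts, which is 0.704 CPM in replicate 1 and 0.582 CPM in replicate 2, so Mir29b-2 did not stand above that limit. The level of miR-29b-3p cannot be read from these counts. For all repeated sequences together, 2696741 and 3224256 reads had several alignments, and how many of them were miR-29b-3p was not analysed here.

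**Figure D2:**
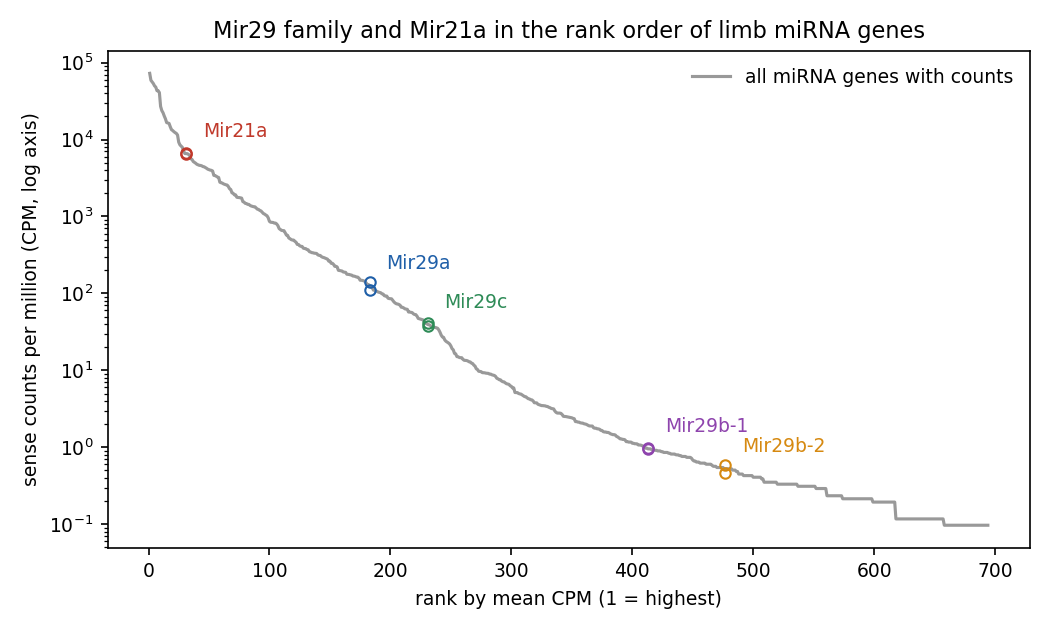
The grey line gives the mean CPM of all miRNA genes with counts (log axis) against their rank, and open circles give the 2 replicates of each member. Mir21a sits at rank 31, Mir29a and Mir29c at ranks 183 and 231, and the Mir29b genes near 1 CPM and below.

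The order of the levels was Mir21a, Mir29a, Mir29c, Mir29b-1 and Mir29b-2 in each library. Mir21a exceeded Mir29a 45.9-fold in replicate 1 (exact 95% interval of the ratio of counts 42.3 to 49.8) and 59.7-fold in replicate 2 (55.0 to 65.0). Mir29a exceeded Mir29c 3.48-fold (2.93 to 4.14) and 2.93-fold (2.48 to 3.46). Mir29c exceeded Mir29b-1 43.5-fold (16.7 to 161) and 39.0-fold (16.4 to 121), and reads with several alignments are outside this comparison. Mir29b-1 and Mir29b-2 differed by 2.0-fold (0.287 to 22.1) and 1.67-fold (0.324 to 10.7), intervals that include equal levels. The first 3 steps of the order are thus wider than counting error and than the range of the replicates, and the last is not distinguishable at this depth.

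Of the counts assigned to the 4 family genes, Mir29a took 77.1% in replicate 1 and 73.8% in replicate 2, and Mir29c 22.2% and 25.2%. Reads with several alignments are outside the shares, sums and ratios of this paragraph. These therefore describe assigned counts, and the level of miR-29b-3p is not known from them. The 4 genes summed to 167 ± 23.9 CPM (SD, n = 2), and Mir21a alone had 39.7 ± 6.15 times as many counts. The chromosome 6 pair gave 609 and 576 counts and the chromosome 1 pair 176 and 198, a ratio of 3.46 (exact 95% interval 2.92 to 4.12) and 2.91 (2.47 to 3.44). In each pair nearly all counts belonged to the gene with its own 3p arm. Mir29a held 99.2% ± 0.149 of its pair and Mir29c 98.7% ± 0.268 (SD, n = 2). The lowest bound of the exact 95% intervals of these shares was 98.0% for Mir29a and 95.6% for Mir29c.

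The genes nearest to each member by mean CPM over the 2 libraries show where these levels fall among the counts assigned to genes. Directly above Mir21a came Mir429, an epithelial miRNA of the miR-200 family, with 6596 ± 649 CPM, and directly below came Mir379 of the Dlk1-Dio3 imprinted region with 6561 ± 868 CPM. Mir29a stood between Mir495 of the same imprinted region (130 ± 27.4 CPM) and Mir128-2 (121 ± 36.7 CPM), a miRNA known from neurons. Mir29c stood between Mir7-1 (40.6 ± 6.0 CPM) and Mir194-2 (39.2 ± 1.69 CPM), which is known from liver and gut (SD, n = 2 for each). The ranges of the replicates overlapped between each member and both of its neighbours. The neighbours were chosen for the closeness of their means, so this overlap is no test of a difference.

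Between the replicates, Mir29a was lower in replicate 2, while Mir29c and Mir21a had no difference past the threshold. All 340 genes whose sense count reached 10 in each replicate were tested with an exact two-sided binomial test given the library totals, with Benjamini-Hochberg adjustment over the 340 and a threshold of 0.05. The test compares these 2 libraries with counting noise and not conditions. It called 173 genes, 50.9% of those tested, of which 86 (25.3%) were higher and 87 (25.6%) lower in replicate 2. Of the 3 members tested 1 was called, and it was lower, which is a share near that background. The b genes had too few counts to be tested.

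Mir29a was 1.28-fold lower in replicate 2, a log2 ratio of -0.36 (exact 95% interval -0.52 to -0.19, adjusted p = 6.42e-05, exact binomial test). Among the genes tested, 17.1% had a lower ratio than Mir29a and 73.8% had a smaller ratio in size. The SD of all 340 log2 ratios was 0.376, slightly more than the size of the Mir29a ratio, and their median size was 0.213. Mir29c had a log2 ratio of -0.11 (-0.41 to 0.19, adjusted p = 0.630, exact binomial test). The intervals of Mir29a and Mir29c overlap, and whether their ratios differ was not tested. The marker that moved most with the replicates was the muscle miRNA Mir206, 11050 CPM in replicate 1 and 4787 CPM in replicate 2, and its part in the Mir29a ratio was not tested. The liver marker Mir122 moved the other way, with 57.5 and 86.2 CPM. The summed erythroid markers were 424 and 411 CPM and the summed leukocyte markers 601 and 657 CPM.

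Mir21a had a log2 ratio of 0.02 (exact 95% interval 0.0015 to 0.0474, adjusted p = 0.0695, exact binomial test). Only 5.59% of the genes tested had a smaller ratio in size. Its call depends on the scaling: with TMM factors the log2 ratio was 0.036 and the adjusted p 0.00484 in the same exact binomial test.

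**Figure D3:**
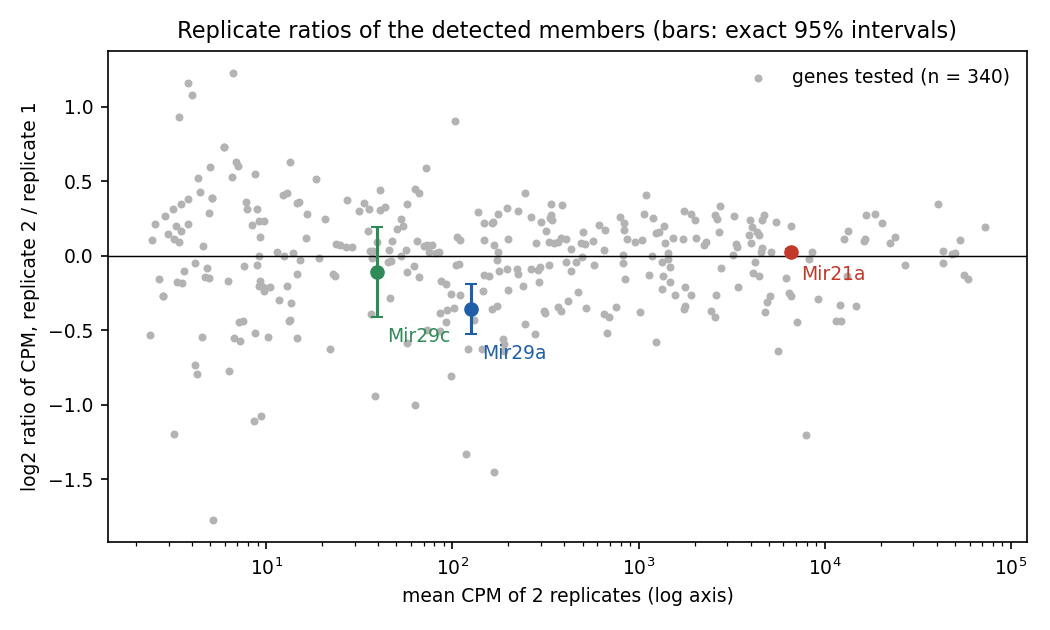
Log2 ratio of CPM (replicate 2 over replicate 1) against mean CPM (log axis) for the 340 genes tested, in grey, with the 3 detected members in colour and their exact 95% intervals as bars. Mir29a at -0.36 lies below 0 with its whole interval, the interval of Mir29c spans 0, and Mir21a lies at 0.02.

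The members were set beside 36 other miRNA genes described as acting on matrix or fibrosis, of which 34 had a row and 30 were detected. The detected genes of this list had a median of 396 CPM, against 167 CPM over all 340 genes detected. Among the 26 genes with a row in the group described as repressing matrix or fibrosis genes, 5 lay above Mir21a and 12 below Mir29a. Mir26b, which represses TGF-beta pathway genes, had 23799 ± 1491 CPM, and Mir30e, of a family that represses the matrix-inducing factor Ctgf, had 16415 ± 906 CPM. Mirlet7d had 13099 ± 900 CPM and Mir143, of smooth muscle and fibroblasts, 9222 ± 1311 CPM (SD, n = 2). Mir429 completes the leading genes of this group. These genes stood far above Mir29a, with 126 CPM.

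In the group described as promoting fibroblast activation or matrix, with 8 genes, 1 lay above Mir21a and 2 below Mir29a. Mir214, transcribed with Dnm3os in mesenchyme, had 20274 ± 2148 CPM, above the 6562 CPM of Mir21a. Mir27b had 3902 ± 261 CPM, Mir199b 1367 ± 134 CPM, Mir34a 382 ± 22.3 CPM and Mir199a-2 317 ± 25.4 CPM (SD, n = 2). Mir21a was thus the second most abundant when placed among these 8. Several genes of the list have copies elsewhere, among them Mir26a-1 and Mir26a-2, Mir30c-1 and Mir30c-2, and Mir199a-1 and Mir199a-2. Reads with several alignments are totalled apart from the genes, so the levels of such genes may be too low. How the counter treated each read common to copies is not given.

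Between the replicates, 15 of the 30 detected list genes passed the threshold higher in replicate 2 and 6 lower, against the background of 25.3% and 25.6%. Their median log2 ratio was 0.12, against 0.02 over all genes tested. Calls depend on counts: with a minimum of 100 counts in both replicates, 167 of 247 genes were called, 84 higher and 83 lower. The detected list genes had a higher median level than all genes tested, 396 against 167 CPM. The list was not compared with genes of like level. In the promoting group 7 of 8 passed, all higher, with a median of 0.21. Mir155 of this group is also 1 of the leukocyte markers. In the repressing group 8 of 22 passed higher and 6 lower, with a median of 0.08. The 6 called lower were the muscle gene Mir133b with a log2 ratio of -1.01, the neighbouring genes Mir145a (-0.36) and Mir143 (-0.29), Mirlet7d (-0.14), Mir30d (-0.12) and Mir30a (-0.04).

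**Figure D4:**
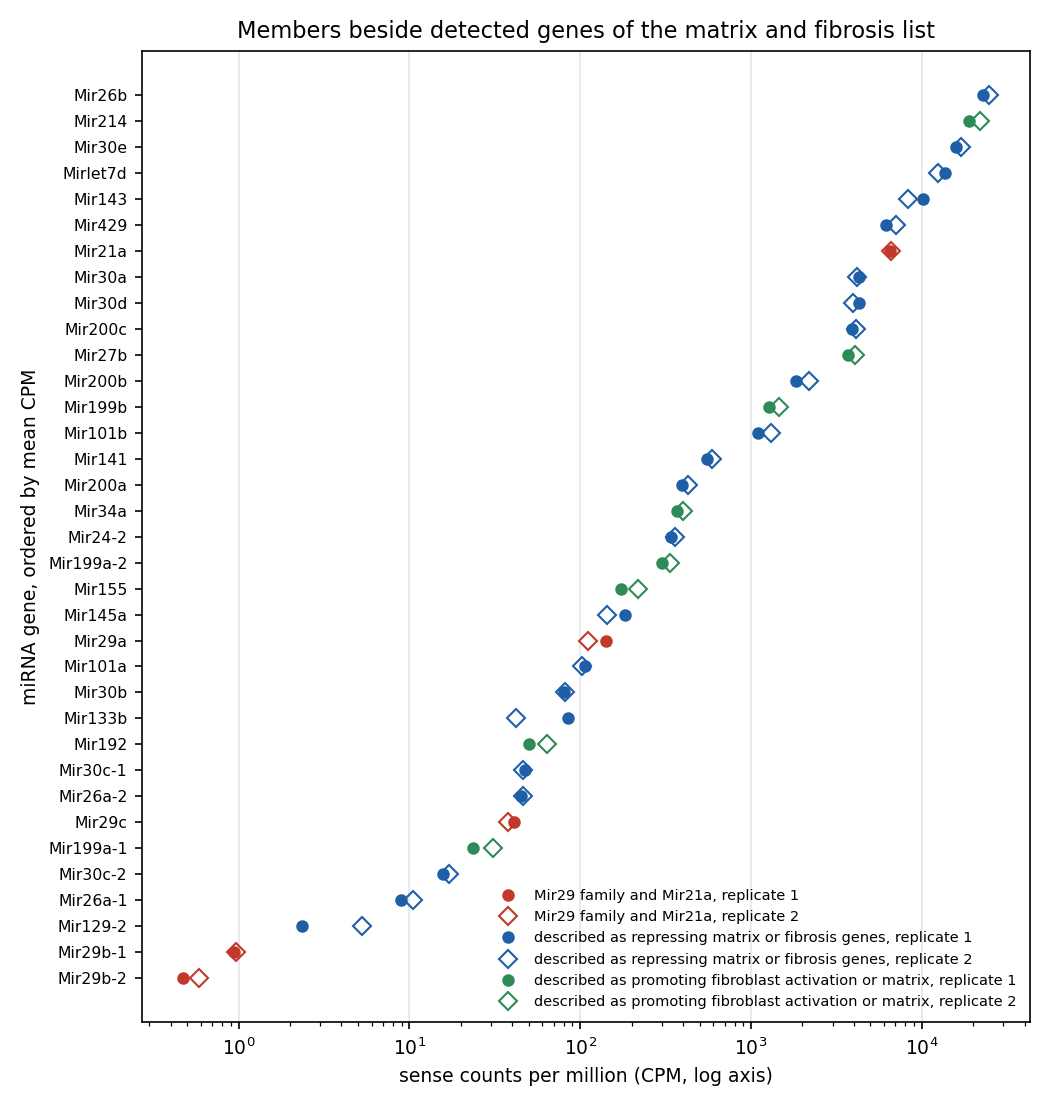
CPM (log axis) of the 5 members (red) and of the 30 detected genes of the matrix and fibrosis list, blue for those described as repressing matrix or fibrosis genes and green for those described as promoting fibroblast activation, filled for replicate 1 and open for replicate 2. Mir21a sits near the top, Mir29a and Mir29c in the lower part and the Mir29b genes at the bottom.

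Matches to the 2 seeds were then looked for in the 3′ UTRs of genes listed as known targets, as context for the sequences above. The longest annotated 3′ UTR of each protein-coding gene was taken from GENCODE M21, on the transcript's strand only. The match to the miR-29 seed is TGGTGCT, or TGGTGCTA with the A that lies opposite the first base. For miR-21a-5p it is ATAAGCT, or ATAAGCTA. No messenger RNA was measured, and the genes were listed because they are described as targets, so a match is a description only.

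Of 12 matrix genes 10 held the 7-base match of miR-29 and 8 the 8-base match, with 18 and 10 matches in all. Over all 21004 genes with a 3′ UTR, 13.1% held the 7-base match and 2.85% the 8-base match. Among 3′ UTRs within 20% of the length of each listed gene, the share with the 7-base match had a median of 11.1%. Col5a1, a collagen that starts fibrils, held 4 matches in 2498 bases, and Eln, which encodes elastin, held 3 in 1188 bases. Col1a2 and Sparc had no match in the 3′ UTR searched. As examples, 5 of the 10 8-base matches are printed, 1 each of Col1a1 and Col3a1, collagens of bone and skin, of the cartilage collagen Col2a1, of Eln and of Fbn1, which encodes fibrillin. The match is in capitals and the bases before it are in lower case.
Col1a1, match at chr11:94952538-94952545, plus strand: ggtggggtgggaaggaatttcTGGTGCTA
Col3a1, match at chr1:45348982-45348989, plus strand: tccaacttcaaaatgtctcaaTGGTGCTA
Col2a1, match at chr15:97975681-97975688, minus strand: gggactgcgtgtcctacacaaTGGTGCTA
Eln, match at chr5:134703736-134703743, minus strand: gactcgcgacctcatcaacgtTGGTGCTA
Fbn1, match at chr2:125301173-125301180, minus strand: agtaggtttctgttgtctgttTGGTGCTA
All of these are matches to the seed that the 3p arms of the 4 Mir29 genes share.

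For miR-21, the 7 listed genes that are reported all held the 7-base match and 6 the 8-base match, while 7.19% and 2.10% of all 21004 genes held them. The list held 1 further gene that is not reported here, so this is not the share of the whole list. Among 3′ UTRs within 20% of the length of each reported gene, the share with the 7-base match had a median of 6.59%. It ran from 3.28% for the length of Pdcd4 to 29.3% for that of Tgfbr2. Tgfbr2 held only a 7-base match in 6085 bases. The 8-base matches are printed for Pdcd4, an inhibitor of translation, for Spry1, an inhibitor of growth factor signalling, and for Reck and Timp3, inhibitors of matrix metalloproteinases.
Pdcd4, match at chr19:53929432-53929439, plus strand: caccgaagtgtgggtgttctgATAAGCTA
Spry1, match at chr3:37643873-37643880, plus strand: agtaaccatgtaagtgcttaaATAAGCTA
Reck, match at chr4:43944407-43944414, plus strand: ttgaatgttttacagtttgaaATAAGCTA
Timp3, match at chr10:86348227-86348234, plus strand: agagcggtttttgagctttcaATAAGCTA
Of the miR-29 list 1 gene, Sparc, held a 7-base match of miR-21, and of the 7 genes reported for miR-21, Spry1 held a match of miR-29.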

How the data were processed

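The values the authors deposited are raw counts, whole numbers of reads for each miRNA gene, made on mm10 with annotation M4, per the README deposited beside them. Their 3 columns have no header. From the values, the first is the sum of the others for all 1973 genes, and they were read as both strands, sense and antisense. For aligner, counter and trimming, "not given in the sources used here" applies. Sense counts were divided by 4263630 and 5151214. The lines for unmapped reads, several alignments (29.4% and 29.7% of reads) and reads outside genes entered no total. GENCODE M21 matched 1894 of 1973 genes by identifier, all 5 members included. The precision rests on counting error alone: intervals are Wilson or exact, and no molecular identifiers were named. The labels call the samples biological replicates. Genes with at least 10 counts in both were tested across all 340 such genes with an exact binomial test and Benjamini-Hochberg adjustment (scipy 1.17.1, Python 3.11.15), checked on simulated data. With 1 group, edgeR's quasi-likelihood test could not be run. TMM factors came from edgeR 4.0.16 and size factors from DESeq2 1.42.0 (R 4.3.3), as alternatives. Other alternatives were strand, library total, detection minimum, Fisher's exact test and each replicate alone. Named genes are the members, the gene directly above and below each detected member by mean CPM, the 5 highest of each list group, genes sharing a seed, and miRNA genes within 10 kb. Outside this rule, single markers, list genes with copies, the genes called lower in the repressing group and the target genes named for their matches were chosen after their values were seen, Mir206 and Mir122 for their ratios. Members and lists were chosen with earlier results of these data known. Listed genes without a row were not analysed here, and 1 listed target gene is not reported here.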

Additional observations from a re-analysis of the deposited data

How the results depend on the processing

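The log2 ratio of Mir29a kept its direction and its call in all 8 alternatives run, and Mir29c was not called in any of them. The call of Mir21a rests on the scaling. It passed the threshold of the exact binomial test with TMM factors (log2 ratio 0.036, adjusted p = 0.00484), with DESeq2 size factors (0.034, adjusted p = 0.00712), with all reads of the library as total (0.057), with the sense total without the 10 most abundant genes (0.056) and with counts irrespective of strand (0.032). It did not pass with Fisher's exact test or another detection minimum. With all reads as total, the levels were 3081 CPM for Mir21a, 59.2 for Mir29a, 18.5 for Mir29c, 0.448 for Mir29b-1 and 0.247 for Mir29b-2. Without the 10 most abundant genes they were 12946, 249, 77.6, 1.88 and 1.04 CPM. Counted irrespective of strand, Mir21a had 6343 CPM and Mir29b-1 0.922 CPM. These shifts follow from the larger or smaller total, and the members had no antisense counts. The number of genes called was 167 to 184 over the 5 alternatives run for it (TMM, DESeq2 size factors, both other minimums and strand). The list's was 20 to 21 over 3 (TMM, DESeq2 size factors and a minimum of 1 count). Neither count was run with the other totals or Fisher's exact test. No paired analysis was possible because there was 1 group. Leaving out a replicate leaves no ratio to test, and a quasi-likelihood or DESeq2 test had no second group. The Mir29b genes had 2 to 5 counts per library, too few to be tested. The parts of depth and of their shared 3p arm in this were not tested.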

Other observations

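Genes built like Mir29b-1 and Mir29b-2, with 1 arm found whole in another hairpin and 1 arm of their own, were compared with other genes by level. Of 555 genes with 2 mature arms in the RefSeq table and a row in the counts, 49 were of this kind. Only the 1005 RefSeq hairpins were searched, so an arm whose copy lies outside them was counted as not shared. Of these 34 (69.4%) had at least 10 counts in both replicates, and their median was 20.8 CPM. Ordered from the lowest, Mir29b-2 was in place 8 and Mir29b-1 in place 9 of the 49. Of the 487 genes with no such arm, 211 (43.3%) were detected, with a median of 0.954 CPM, which is the level of Mir29b-1. Of the 19 genes with both arms found elsewhere, 5 (26.3%) were detected, with a median of 0 CPM. These kinds of gene were not matched for anything else, so whether a shared arm lowers a count was not tested. Which arm the counted reads came from is not recorded in the tables.

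Mir21c, whose mature arm has the same seed, had 0 counts in both replicates. Mir21b had 1 count in replicate 1 and 0 in replicate 2. A count of 0 allows up to 3 counts. Mir6338, which shares the seed of miR-29b-2-5p, also had 0 in both.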
